A study of Mus musculus with 2 samples.

Results

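Recurrently hemimethylated CpG sites are sites at which both libraries of E14 mouse embryonic stem cells (mESCs) carried 5-methylcytosine (mC) on 1 strand and unmodified cytosine on the other in a large share of molecules, and mostly in the same direction. A hemimethylated CpG is called MC when the mC is on the plus strand and CM when it is on the minus strand. The sites were chosen on these calls: MC plus CM had to be at least 40% of the depth in each replicate, and the same orientation had to hold at least 80% of the MC and CM calls in each. Of 4494645 autosomal CpG sites present in both replicates, 3227 passed, or 0.0718%. They comprised 1645 sites with mC on the plus strand and 1582 with mC on the minus strand.

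In mammals the maintenance methyltransferase DNMT1, brought to newly copied DNA by UHRF1, restores mC on the daughter strand opposite a methylated parental strand. A CpG is therefore hemimethylated for a time after each round of replication, and which strand is methylated then differs from molecule to molecule. TET enzymes oxidise mC to 5-hydroxymethylcytosine (hmC), which is another route by which the modifications of the strands of a CpG can come to differ. Embryonic stem cells express both DNMT and TET enzymes.

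SCoTCH-seq links both strands of a DNA fragment by hairpin adapters, so that each read pair gives the state of both cytosines of a CpG, out of 9 combinations of C, mC and hmC. It was run on genomic DNA of E14 cells kept on gelatin in medium with serum and LIF, in 1 condition, with 1 library from each of 2 passages of the line, called replicate 1 and replicate 2. The sample labels give 10% FBS in the medium and the methods give 15%. No condition was compared in the study's samples used here, and with 2 libraries no test between samples was possible. Replicate 1 covered 13366464 autosomal sites with a median depth of 10 calls, and replicate 2 covered 4882356 with a median depth of 6. The promoters of the stem cell genes Pou5f1, Sox2 and Zfp42 were almost wholly CC, meaning unmodified on both strands, at 97.2% or more of calls in each replicate. For Nanog the level of CC was 80.1% in replicate 1 and 86.2% in replicate 2, and for Esrrb it was 28.0% and 15%, below the 73.8% and 72.8% over all promoters. The values of single genes use the sites of each replicate, for Esrrb in replicate 2 only 40 calls at 6 sites. Those over all promoters use the sites present in both replicates.

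The most strongly hemimethylated sites with at least 10 calls in each replicate are shown with their sequence, because the bases beside the CpG are among the features in which the recurrent sites stood apart. Of the 55 recurrent sites of that depth, the 8 with the highest level in the shared orientation follow. Each sequence is from RefSeq GRCm38.p6, runs 5′ to 3′ on the strand that carried mC, and has in capitals the CpG and the base 3 before its C.
chr16:57821577-57821636, plus strand: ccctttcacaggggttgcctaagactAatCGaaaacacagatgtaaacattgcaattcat
chr5:4824497-4824556, minus strand: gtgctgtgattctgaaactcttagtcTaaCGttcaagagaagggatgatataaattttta
chr1:71440705-71440764, minus strand: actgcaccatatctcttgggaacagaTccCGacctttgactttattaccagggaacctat
chr15:97848972-97849031, plus strand: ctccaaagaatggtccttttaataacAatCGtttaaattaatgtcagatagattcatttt
chr8:60894541-60894600, minus strand: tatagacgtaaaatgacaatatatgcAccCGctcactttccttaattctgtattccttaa
chr7:42433248-42433307, minus strand: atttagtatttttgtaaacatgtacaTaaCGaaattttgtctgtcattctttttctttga
chr19:22907225-22907284, plus strand: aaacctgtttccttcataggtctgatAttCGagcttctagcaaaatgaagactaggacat
chr11:69213166-69213225, plus strand: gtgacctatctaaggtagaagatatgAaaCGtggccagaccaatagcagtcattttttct

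The site on chromosome 16, at position 57821606, was outside protein-coding genes, 66869 bp from the nearest transcription start site (TSS), that of Col8a1, which encodes a collagen. It gave 6 MC and 1 CM among 11 calls in replicate 1 and 5 MC and 1 CM among 10 calls in replicate 2. Its other calls were MM, methylated on both strands, or CC. The site at position 4824526 of chromosome 5 lay in an intron of Cdk14, a cyclin-dependent kinase gene. It gave 6 CM and 1 MC among 13 calls in replicate 1 and 5 CM and no MC among 10 calls in replicate 2. The site at position 71440734 of chromosome 1, outside protein-coding genes, gave 5 CM and no MC among 11 calls and then 5 CM and 1 MC among 11, with 5 MM calls in each replicate. These sites thus held molecules methylated on 1 strand beside molecules methylated on both.

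On chromosome 15, the site at position 97849001 was 4499 bp from the TSS of Hdac7, a histone deacetylase gene. It gave 8 MC and 1 CM among 18 calls in replicate 1 and 5 MC and no CM among 11 calls in replicate 2. On chromosome 8, position 60894570 was in the first intron of Hpf1, which encodes a cofactor of PARP1 in the response to DNA damage. It gave 7 CM and no MC among 16 calls and 5 CM and no MC among 10, so every hemimethylated call had mC on the same strand. On chromosome 7, position 42433277, again outside protein-coding genes, gave 8 CM and no MC among 19 calls and 6 CM and 1 MC among 14. In replicate 1 it was CC in 9 calls and MM in 2, the highest number of CC calls among these 10 sites.

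The site at position 22907254 of chromosome 19 was in an intron of Trpm3, a cation channel gene, and gave 6 MC and 1 CM among 14 calls and 5 MC and 1 CM among 12. On chromosome 11, the site at position 69213195 gave 6 MC and no CM among 12 calls and 5 MC and 1 CM among 12. Another on that chromosome, at position 3259247, lay in an exon of Drg1, which encodes a GTP-binding protein, and gave 5 MC and 1 CM among 12 calls and 5 MC and no CM among 11. The last site, at position 157553885 of chromosome 1 in an intron of Sec16b, a gene of protein export from the endoplasmic reticulum, gave 5 CM and no MC among 12 calls and among 10 calls. The level in the shared orientation at these 10 sites ran from 41.7% to 54.5% in replicate 1 and from 41.7% to 50.0% in replicate 2. None of the 10 sites was in a soft-masked repeat.

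Orientation recurred between the replicates more often than the margins gave. Of the shared sites, 66138 (1.47%) met both thresholds in replicate 1 and 234334 (5.21%) in replicate 2, and 5207 met them in both. If orientation were independent between the replicates, 2603.9 of the 5207 sites would have had the same orientation, and 3227 did, a ratio of 1.24 and a share of 62.0% (95% confidence interval 60.6 to 63.3%, exact Clopper-Pearson, counting error only). The other 1980 sites met both thresholds with the opposite orientation in the other replicate. These opposite sites passed the same limits on level and depth, and serve here as the comparison for what the rule did not use. Most of the recurrent sites would be expected with independent orientation too. A difference carried only by the rest is therefore diluted in every such comparison. The share with the same orientation was above 50% on 18 of 19 autosomes and ran from 50.0% to 68.4%. Without regard to orientation, 34571 sites reached 40% in both replicates, where 21671.5 would have if reaching it were independent, a ratio of 1.60. That expected number takes all shared sites as alike, whatever their depth or level of methylation. The ratio therefore also holds such differences between sites.

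The share with the same orientation was larger where hemimethylation was higher. Among sites whose lower level in the replicates was 10 to 20%, and which held 80% of the hemimethylated calls in 1 orientation in each, 53.7% had the same orientation. The share was 55.9% at 20 to 30%, 60.7% at 30 to 40%, 60.96% at 40 to 50%, 68.9% at 50 to 60% and 73.9% of 92 sites at 60% or more. Nothing changed sharply at the threshold: 61.8% had the same orientation among the 3096 sites with a lower level from 35% to just under 40%, and 60.9% among the 4389 sites just inside, from 40% to under 45%. At these depths a low level can rest on 1 hemimethylated call, which meets the 80% limit by itself, so level and number of calls are not separated here. Among sites at 40% or more with at least 4 hemimethylated calls in each replicate, the share was 68.6%. All these values use the calls by which the sites were chosen and are given as a description.

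**Figure D1:**
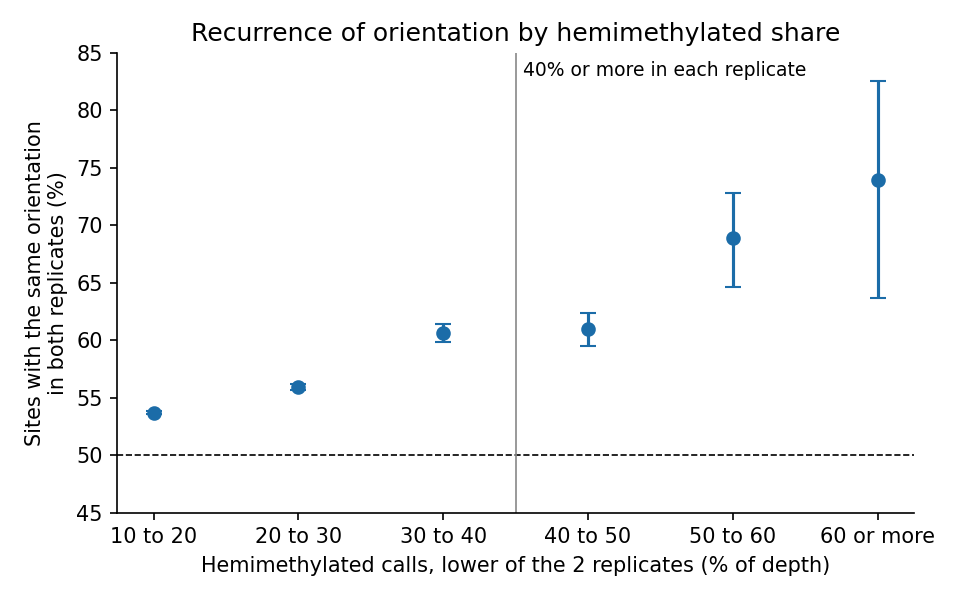
Share of sites with the same orientation in both replicates (y axis, %) by the lower of the hemimethylated levels of the replicates (x axis, % of depth), among sites with at least 80% of hemimethylated calls in 1 orientation in each. Bars are 95% Clopper-Pearson intervals, the dashed line is 50%, and the 3 bins to the right of the vertical line hold the recurrent and the opposite sites. The share runs from 53.7% in the lowest bin to 73.9% in the highest.

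The depth leaves single sites coarse. Recurrent sites had a median depth of 9 calls in replicate 1 and 5 in replicate 2, below the 11 and 6 of all shared sites, and the median number of hemimethylated calls was 5 and 2. In replicate 2, 1715 recurrent sites (53.1%) rested on 2 hemimethylated calls. All hemimethylated calls had 1 orientation at 64.3% of the recurrent sites in replicate 1 and at 96.3% in replicate 2. An exact binomial test of MC against CM at each shared site with at least 6 hemimethylated calls, two-sided and Benjamini-Hochberg adjusted, called 0 of 158392 sites in replicate 1 (0%), with 12797 at an unadjusted p under 0.05. In replicate 2 it called 0 of 6511 sites, with 697 at an unadjusted p under 0.05. The sites tested included 917 recurrent sites in replicate 1 and 34 in replicate 2, so the orientation of any single recurrent site was not detectable at this depth by this test. With at least 10 hemimethylated calls, the test called 0 of 7855 sites in replicate 1, with 757 at an unadjusted p under 0.05, and 3 of 26 sites in replicate 2 (11.5%), none of them recurrent. At those 3 sites, 54 of 85 hemimethylated calls in replicate 1 had the orientation of replicate 2. The 95th percentile of depth over all shared sites in replicate 2 was 10 calls. These 26 sites were therefore among the deepest, and 11.5% is not a rate for sites of usual depth.

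Sites chosen in 1 replicate alone can be read in the other without that choice. At the 66138 sites chosen in replicate 1, 55.7% of 80194 hemimethylated calls in replicate 2 had the orientation of replicate 1, above 50% on each of the 19 autosomes (adjusted p = 1.48e-05 by a two-sided, exact permutation test that flips the signs of autosomes). At the 234334 sites chosen in replicate 2, 54.2% of 486402 hemimethylated calls in replicate 1 had the orientation of replicate 2, again on 19 of 19 autosomes (adjusted p = 1.48e-05 by the same exact test). Their level of hemimethylation in the replicate not used was 19.4% against 14.8% over all shared sites in replicate 2, and 17.3% against 13.8% in replicate 1, higher on 19 of 19 autosomes in each (adjusted p = 1.48e-05 for both, exact test). Most of the level by which these sites had been chosen, 46.1% in replicate 1, was thus not seen in the replicate that had not chosen them. The comparison of levels takes all shared sites as alike, whereas the rule leaves out sites that are wholly CC. In replicate 2, CC was 10.3% of calls at the sites chosen in replicate 1, against 19.1% over all shared sites. The tests of the level therefore also hold such differences between sites. Their part in the higher level was not tested. Autosomes are parts of 1 library and not replicates, and these p-values measure the spread between autosomes within a library.

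Synthetic and phage DNA in the same libraries also gave hemimethylated calls of uneven orientation, which do not come from the cells. At 3111 CpG sites of spiked-in lambda DNA, called mostly MM (91.0% in replicate 1, 92.4% in replicate 2) at a median depth of 137 and 85 calls, hemimethylated calls were 3.51% and 6.43%. The majority orientation was the same in both replicates at 59.7% of 2168 lambda sites (95% interval 57.6 to 61.8%), and at 66.5% of the 552 with at least 6 hemimethylated calls in each (62.4 to 70.4%). Taking the majority in replicate 1 at every lambda site, 56.6% of 14957 hemimethylated calls in replicate 2 followed it, and 52.9% did when the same was done over the shared autosomal sites. The majority at a lambda site rests on far more calls than at an autosomal site, where the median depth was 11 and 6, so these shares are not matched for depth. In 1 lambda site the rule for recurrent sites was met. At the MM sites of the synthetic duplexes, CM was called in 1.91 to 2.12% of calls and MC in 0.0431 to 0.256%. The part of these uneven calls in the recurrence of the mESC sites was not tested.

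Apart from the MC and CM calls that chose them, recurrent sites were mostly methylated on both strands. Of their other calls, 72.0% were MM in replicate 1 and 81.0% in replicate 2, against 64.3% and 70.3% over all shared sites. CC made up 19.4% and 13.6% of the other calls at recurrent sites and 25.97% and 22.5% at all shared sites. The opposite sites had nearly the same values, with 72.1% and 81.0% MM and 19.01% and 13.5% CC. States with hmC on 1 strand and C on the other (HC and CH) were 4.07% and 3.25% of the other calls at recurrent sites, 4.18% and 3.35% at opposite sites and 4.65% and 4.23% at all shared sites. States with hmC opposite mC (HM and MH) were 4.05% and 2.03% at recurrent sites and 4.59% and 2.85% at all shared sites. HH calls, with hmC on both strands, were 0.529% and 0.0731%.

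**Figure D2:**
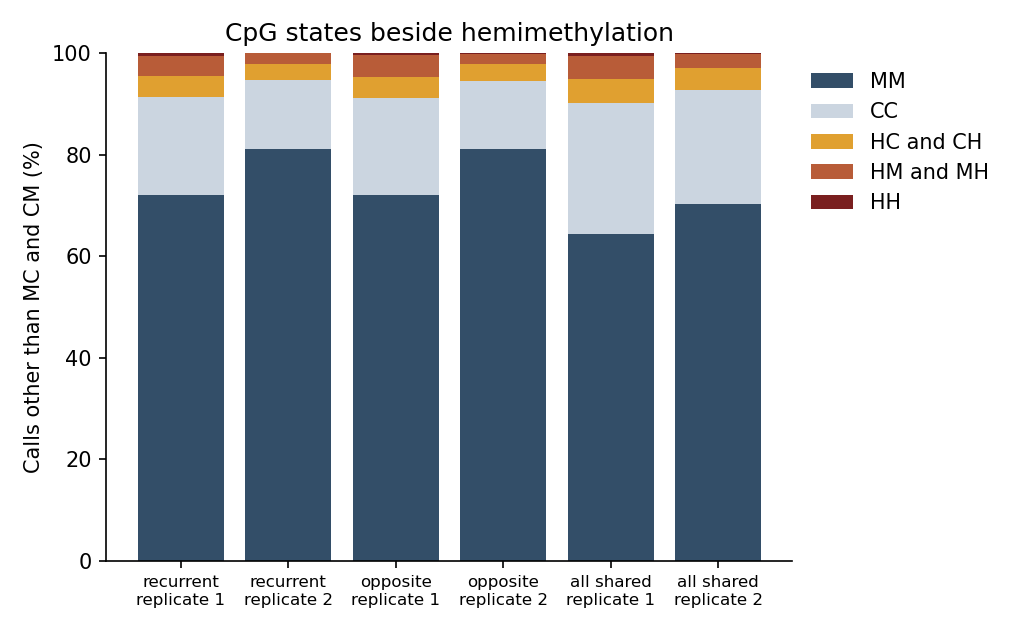
CpG states among the calls that were neither MC nor CM (y axis, % of those calls), for recurrent sites, opposite sites and all shared autosomal sites in each replicate. MM takes 72.0% and 81.0% at recurrent sites and 64.3% and 70.3% at all shared sites, and the bars of recurrent and opposite sites are close to each other.

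The HC and CH calls of the recurrent sites leaned to the strand that carried mC. Among 684 HC and CH calls in replicate 1, 56.9% had hmC on the strand with mC in the MC or CM calls of the site (95% interval 53.1 to 60.6%, above 50% on 15 of 19 autosomes, exact sign-flip test, adjusted p = 0.00239). In replicate 2 the share was 58.8% of 311 calls (53.2 to 64.4%, 14 of 19 autosomes, exact sign-flip test, adjusted p = 0.0338). With a depth of at least 10 in each replicate, the pooled share was 55% of 20 calls and no longer passed the test (p = 1, exact). At sites chosen in the other replicate the shares were 53.5% in replicate 1 and 53.9% in replicate 2, above 50% on 19 of 19 autosomes (adjusted p = 1.48e-05 for both, exact test). The opposite sites, read by the orientation of their own replicate, gave 57.3% of 415 calls in replicate 1 and 48.7% of 199 calls in replicate 2. For the HM and MH calls, mC was on that strand in 50.6% of 680 calls in replicate 1 and 50.0% of 194 calls in replicate 2 (adjusted p = 0.58 and 0.775, exact test).

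Duplexes with a known MC or CM state give the rate at which an mC is read as hmC. In replicate 1, HC made up 3.34 to 3.67% of the calls at a true MC, and in replicate 2 it made up 0.493 to 0.668%, while CH was at most 0.00675%. Such calls put hmC on the strand that carries mC. The rule chose sites with many MC or CM calls on 1 strand, so misreads of these calls can by themselves raise the share above 50%. The sign-flip tests of the HC and CH calls against 50% are therefore not tests of hmC itself. The part of misreads in the lean of the HC and CH calls was not tested.

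Neighbouring CpG sites were read by the orientation of the recurrent site. Sites a short distance apart can lie on the same fragment, so in the same replicate the molecules that chose a site can also give the calls of its neighbours, and these shares are given as a description. Sign-flip tests of them were computed and are counted in the adjustment of the other p-values, but cannot be read as tests. Leaving out neighbours that were recurrent themselves, 71.6% of 3129 hemimethylated calls at sites within 50 bp in replicate 1 had the orientation of the recurrent site, and 76.6% of 1360 calls in replicate 2. The shares were 52.1% and 54.4% at 51 to 200 bp, and 50.2% and 49.4% beyond that and up to 1000 bp. The opposite sites, read by the orientation that they had in the replicate being read, gave 73.7% and 81.1% within 50 bp, so a high share was not particular to recurrent sites.

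Read from 1 replicate to the other, where no fragment is shared, the share within 50 bp was close to 50%. Neighbours within 50 bp of the sites chosen in the other replicate had that site's orientation in 50.7% of 242637 calls in replicate 1 (15 of 19 autosomes, exact test, adjusted p = 0.00239) and in 50.4% of 27119 calls in replicate 2 (9 of 19 autosomes, adjusted p = 0.34, exact test). The sites themselves had given 54.2% and 55.7% when read in this way.

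**Figure D3:**
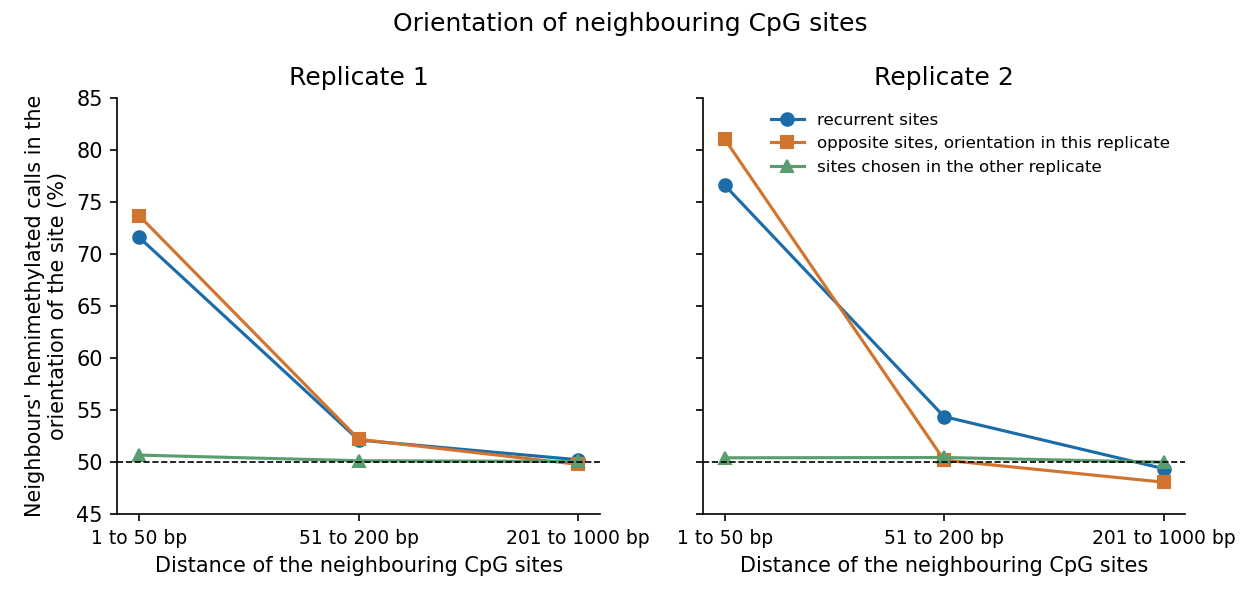
Share of the hemimethylated calls of neighbouring CpG sites that had the orientation of the site (y axis, %), by distance (x axis, bp), in each replicate. The dashed line is 50%. Recurrent and opposite sites start between 71.6% and 81.1% within 50 bp and fall to near 50%, while sites chosen in the other replicate stay between 50.0% and 50.7% at every distance.

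The surroundings of recurrent sites were mostly MM, and the test found no difference in this from those of opposite sites. MM was 59.95% of calls at neighbours within 200 bp in replicate 1 and 64.2% in replicate 2, against 59.93% and 62.9% around opposite sites (adjusted p = 0.763 for both, exact sign-flip test). Around all shared sites it was 50.1% and 53.0%. Hemimethylated calls were 16.1% and 17.99% at the neighbours within 200 bp of recurrent sites. No level around opposite sites is set beside these. The levels at neighbours, of MM too, can rest in part on the fragments that chose the sites. Recurrent sites had on average 1.45 other CpG sites within 100 bp, opposite sites 1.505 and all shared sites 2.30. No other CpG lay within 100 bp at 987 recurrent sites (30.6%), at 29.9% of opposite sites and at 20.4% of all shared sites.

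The bases beside the CpG at recurrent sites differed from those of all shared sites, in part as they did at opposite sites. On the strand that carried mC, the base 3 before the C was adenine at 1586 recurrent sites, or 49.1%, against 30.1% over both strands of all shared sites. On the other strand of the recurrent sites it was adenine at 24.6%. At opposite sites the values were 36.8% on the strand methylated in replicate 1 and 33.7% on the strand methylated in replicate 2. At the sites chosen in replicate 1 alone it was 41.6%. The share of recurrent sites was above that of opposite sites on 18 of 19 autosomes. Sequence was not used to choose the sites, but the orientation was, and these shares are given as a description, without a test.

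The share of adenine was larger among recurrent sites with more calls behind them, with no share of opposite sites at the same minimums set beside it. It was 57.3% of 358 sites with at least 4 hemimethylated calls in each replicate and 63.6% of 55 sites with a depth of at least 10 in each (95% interval 49.6 to 76.2%). In the 8 sequences printed above, 5 have it. Seen from the genome, 1903168 shared sites had adenine at that position on 1 strand only, and 1596 of them were recurrent. Of these, 1194 had mC on the strand with adenine and 402 on the other strand. Recurrent sites numbered 0.839 per 1000 shared sites in this class, 0.978 where both strands had adenine there and 0.566 where neither had. Opposite sites had the same order, with 0.483, 0.596 and 0.375 per 1000, and the share with the same orientation was 63.5%, 62.1% and 60.1% in these classes.

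Other bases and positions moved by less against all shared sites. Position 4 after the C lies opposite the base 3 before the C of the other strand, so cytosine there is guanine on that strand. The other positions after the CpG likewise mirror positions before the C of the other strand. On the strand carrying mC, cytosine 4 after the C was at 28.3% of recurrent sites, 20.9% of opposite sites and 19.5% of all. Guanine 5 after the C was at 12.8%, 19.3% and 21.6%. Thymine 3 after the C was at 18.1%, 23.7% and 29.4%, and thymine 6 after the C at 39.3%, 36.97% and 29.7%, so that most of this last shift was also present at opposite sites. Of the 16 contexts formed by the bases next to the CpG, TCGA had the highest ratio to all shared sites, at 11.4% of recurrent sites, 10.25% of opposite sites and 6.98% of all, and GCGC the lowest, at 1.52%, 2.02% and 3.27%. Most of these shifts too were present at opposite sites. Of the 3 bases before the C, ACC was the most enriched, at 4.06% of recurrent sites, 1.82% of opposite sites and 1.49% of all, followed by ACT at 4.71%, 3.13% and 1.95%. AAA was the most frequent of the 5 most enriched, at 8.15%, 4.44% and 3.47%.

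**Figure D4:**
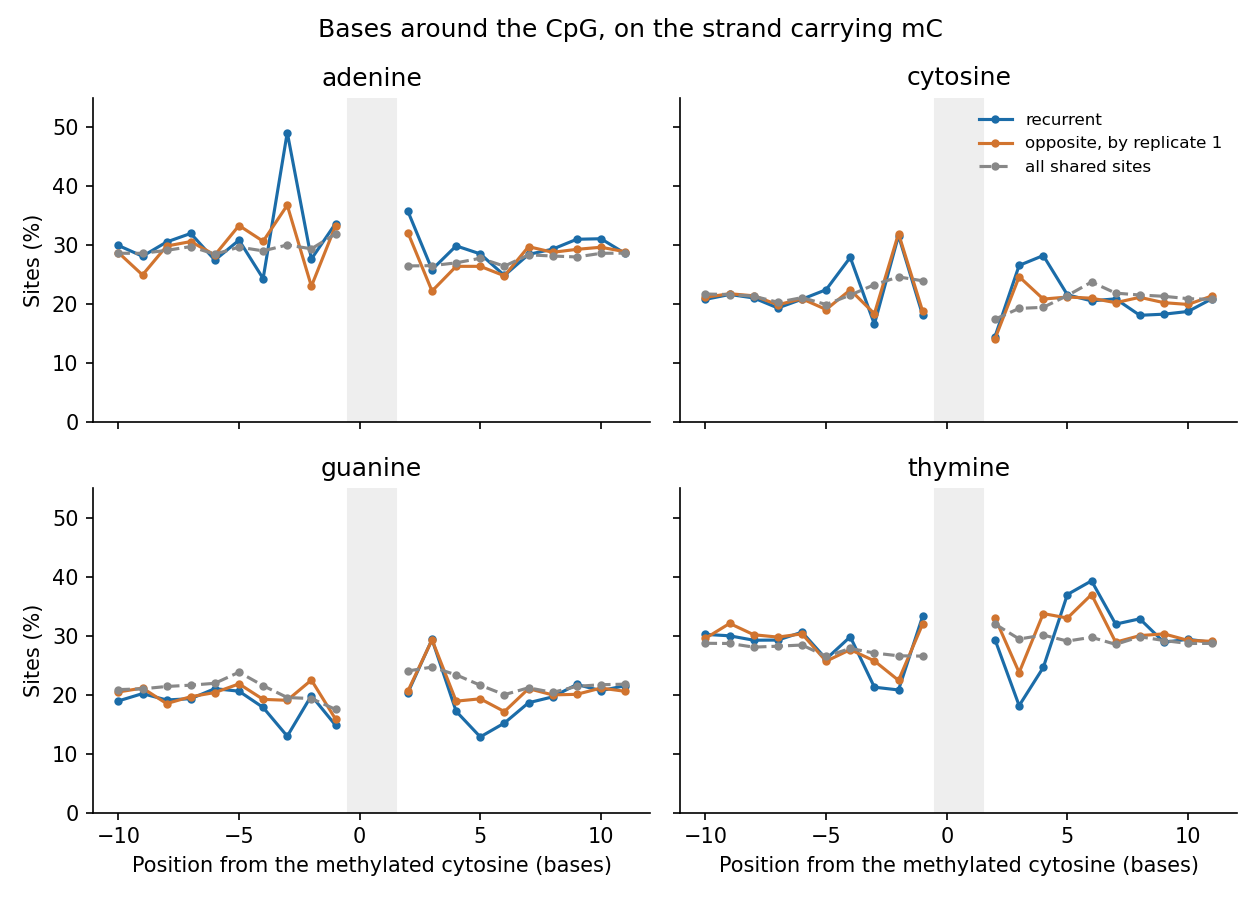
Share of sites with each base (y axis, %) at each position from the methylated cytosine (x axis, bases, negative before the C), on the strand carrying mC, for recurrent sites, opposite sites read by replicate 1 and all shared sites over both strands. The gray band covers the CpG. Adenine 3 before the C stands at 49.1% in recurrent sites, 36.8% in opposite sites and 30.1% in all shared sites.

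The lean to the strand with adenine was also present at sites that met the rule in neither replicate. At 1768493 such sites with adenine 3 before the C on 1 strand only, mC was on that strand in 55.4% of 3001370 hemimethylated calls in replicate 1 and 54.3% of 1579220 in replicate 2. The lowest and highest autosomes were 55.1% and 55.6% in replicate 1, and 53.8% and 54.5% in replicate 2. With guanine at that position on 1 strand only, the shares were 45.6% and 46.4%. With cytosine they were 49.0% and 49.4%, and with thymine 48.1% and 48.5%, below 50% on every autosome in both replicates. A site with different bases there on its strands counts in the class of each base, with mirrored shares. The classes are therefore not independent, and a share above 50% for 1 base draws those of the others below it. In levels, MC-type calls with mC on the strand with adenine were 7.65% of depth in replicate 1 and 7.49% in replicate 2, and those with mC on the other strand 6.16% and 6.30%. The HC and CH calls of these sites had hmC on the strand with adenine in 54.6% and 54.2%. With guanine there, the HC and CH share was 42.95% and 42.75%, above 50% on 0 of 19 autosomes in each replicate. With cytosine it was 49.1% and 50%. With thymine there, the HC and CH share was 51.5% and 51.6%, above 50% on 19 of 19 autosomes in each replicate, the other way from its hemimethylated calls. When the expected number was computed within the 16 combinations of the base 3 before the C on each strand, 2751.0 recurrent sites would have been expected and the ratio of the observed number to it was 1.17. Whether the lean to the strand with adenine lies in the DNA of the cells or in the conversion and reading of the bases was not tested. The bases beside the CpG sites of lambda DNA were not compared.

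**Figure D5:**
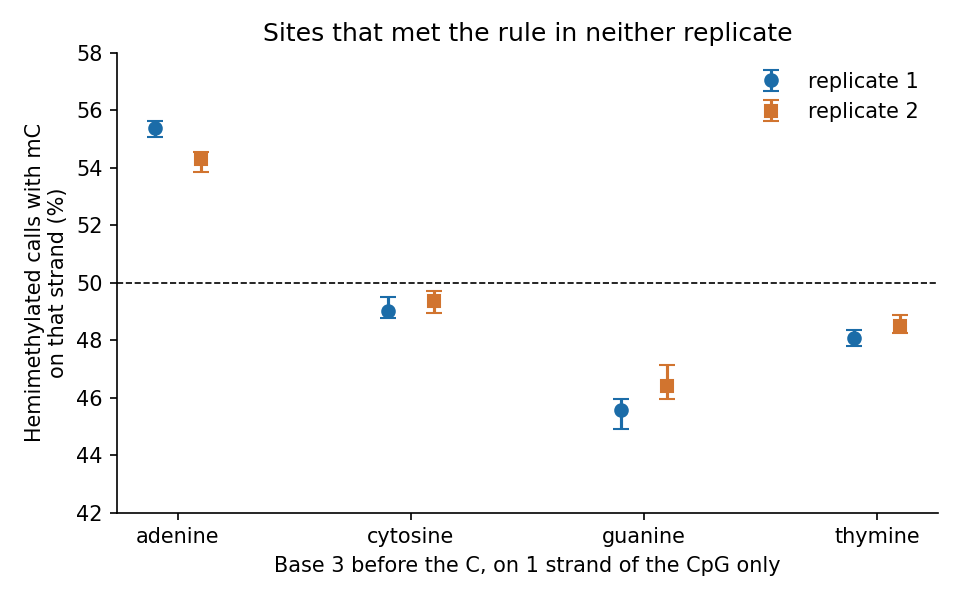
Share of hemimethylated calls with mC on the strand that has the named base 3 before the C, where the other strand has a different base (y axis, %), by that base (x axis), at sites that met the rule in neither replicate. Bars run from the lowest to the highest of 19 autosomes and the dashed line is 50%. A site counts in the class of the base of each strand, with mirrored shares, so the classes are not independent. Adenine is at 55.4% and 54.3% and guanine at 45.6% and 46.4% in replicates 1 and 2.

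Windows of 61 bases around the recurrent sites held few of the factor motifs searched, on either strand. CNAGGNGGC, a part of the motif of the insulator protein CTCF, was in 0.434% of them, in 0.404% of windows of opposite sites and in 0.488% of all shared sites. CACGTG, the E-box bound by MYC and USF factors, was in 1.77%, 1.46% and 1.91%. GGGCGG, bound by SP1, was in 0.961%, 0.909% and 0.857%, and CCGGAAG, bound by ETS factors, in 0.496%, 0.202% and 0.578%. TGACGTCA, bound by CREB, was in 1 window of a recurrent site, GATGGCGGC, a part of the YY1 motif, in 0, and TGCCGC in 0.341%, against 0.122%, 0.0281% and 1.0% of all shared sites. All but the CTCF motif contain CG in their fixed letters, and the CTCF motif can contain it where N, any base, completes it. Matches can therefore overlap the CpG itself, so the shares depend also on the bases beside it. A match is a match of letters only.

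By annotation, the shares of recurrent and opposite sites were close at the full number of sites. Outside protein-coding genes lay 1696 recurrent sites (52.6%), against 51.5% of opposite sites and 47.3% of all shared sites. In introns other than the first there were 782 (24.2%, against 26.01% and 23.97%), in first introns 555 (17.2%, against 17.02% and 17.95%) and in exons 173 (5.36%, against 4.34% and 7.09%). Promoters, within 1 kb of a TSS, held 21 recurrent sites (0.651%), against 1.11% of opposite sites and 3.67% of all shared sites. Soft-masked repeats held 471 (14.6%), against 13.6% and 10.5%. No class passed the exact sign-flip test over autosomes between recurrent and opposite sites, with adjusted p from 0.34 to 0.952 and differences from -1.78 to 1.04 percentage points. A difference held by only a part of the recurrent sites would be diluted in this test. With a depth of at least 10 in each replicate, leaving 55 recurrent and 22 opposite sites, the difference turned to 1.82 points for promoters, 16.4 for introns other than the first and -22.7 outside protein-coding genes, and none passed the exact test. In genes on 1 strand, mC was on the strand of the gene at 757 of 1507 recurrent sites, or 50.2% (95% interval 47.7 to 52.8%).

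Recurrent sites did not form large runs. The median gap between neighbouring recurrent sites on a chromosome was 458178.5 bp, and 26 sites (0.806%) had another within 1000 bp, against 0.909% of opposite sites. Of the 3 pairs of recurrent sites within 50 bp of each other, all had 1 orientation, as did all 7 such pairs of opposite sites by their orientation in replicate 1. Recurrent sites had 1 orientation in 4 of 5 pairs at 51 to 200 bp, 4 of 5 from there to 1000 bp and 18 of 42 at over 1000 and up to 10000 bp. No run of sites up to 200 bp apart held more than 2. The shortest runs were at chr4:154648961-154648967 with both sites MC, at chr15:97523893-97523899 with both CM and at chr15:53533600-53533610 with both MC. By autosome there were 0.539 to 0.862 recurrent sites per 1000 shared sites, and 0.718 over all autosomes.

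Of 20807 autosomal protein-coding genes, 1315 held at least 1 recurrent site, 1125 of them 1 site, 155 of them 2 and 35 of them 3 or more. No gene held more than 5. Among the genes with 5 and the most per shared site were Ank2, which encodes an ankyrin that anchors membrane proteins, with 3.79 per 1000 shared sites, and Pcdh15, a protocadherin of sensory hair cells, with 2.78. Robo1, the axon guidance receptor for SLIT proteins, had 2.76 and Anks1b, a scaffold protein of synapses, had 2.17. These 4 genes were long, from 577739 to 1550396 bp, with 1319 to 2302 shared sites. They held 0 to 2 opposite sites each. The genes were picked by their number of recurrent sites, so their recurrent and opposite counts cannot be compared.

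Imprinted genes carry regions that are methylated on 1 parental allele. In 11 genes found among the protein-coding annotation, of 14 listed, there was 1 recurrent site among 1653 shared sites, in Igf2r, the receptor that clears IGF2. In 12 genes of the methylation machinery there was 1 among 1974, in Tet1, which encodes an oxidase of mC. These are 0.605 and 0.507 per 1000 shared sites. Dnmt1 with 249 shared sites, Uhrf1 with 54, Dnmt3a with 279 and Dnmt3b with 118 held none. At 0.718 per 1000 over all autosomes, lists of this size hold too few sites for a difference to be detectable.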

How the data were processed

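The authors trimmed read pairs with cutadapt 4.6, aligned the inserts to GRCm38 (mm10), removed duplicates with Picard 3.1.1 and derived the state of a CpG from every read pair that covers it. The deposited tables give, per replicate, the count of calls of each state at each CpG site, the depth and the percent of each state, after the authors removed sites with under 5 calls, with several calling errors or in blacklisted regions. The deposited percent equals count over depth at every site. Counts were not corrected by the spike-ins. All positions were on the C of a CpG of GRCm38.p6 when counted from 1.

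Counts were analysed in Python 3.11.15 (SciPy 1.17.1, NumPy 2.4.6, pandas 2.3.3; plots, Matplotlib 3.10.9). Promoters (1 kb either side of the TSS), exons and introns of protein-coding genes were taken from GENCODE vM21, in that order. Differences were tested per replicate over 19 autosomes with an exact two-sided sign-flip permutation test, with Benjamini-Hochberg adjustment over 31 tests, of which the smallest possible p is 3.81e-06. Confidence intervals are exact Clopper-Pearson at 95% and cover counting error only. The scripts were tested on simulated data. The members, lists and comparisons were chosen with earlier results of these data known. Named sites had a depth of at least 10 in each replicate and were ranked by the lower level in the shared orientation. Named genes were the 5 with the most members, of which 1 is not reported here, and named runs the 3 with the most members, with ties, here all at 2 members, taken by the shorter span. Alternatives were coverage, level, orientation and call minimums, chromosome X, neighbour distances, promoter widths, motif windows and leaving out a replicate. Chosen after seeing the data were the analyses of sites chosen in 1 replicate, of the base 3 before the C outside the rule, and its strata.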

Additional observations from a re-analysis of the deposited data

How the results depend on the processing

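With stricter rules the recurrent sites became far fewer and the ratio of observed to expected number higher: 55 sites and 1.43 with a coverage minimum of 10, 68 and 1.48 with at least 60% hemimethylated calls, 424 and 1.39 with at least 50%, and 358 and 1.37 with at least 4 hemimethylated calls in each replicate. With all hemimethylated calls in 1 orientation 2012 sites remained past the rule, at a ratio of 1.24. Left to 1 replicate alone, the rule chose 66138 to 234334 sites, so the number rests on both libraries. With the expected number computed within strata of the base 3 before the C, chosen after seeing the data, the ratio was 1.17. The share of neighbours' calls in the orientation of the site, pooled over the replicates that chose the sites and so no independent reading, was 73.1% within 50 bp and 50.05% from 200 to 1000 bp. With a coverage minimum of 10, the HC and CH share was 55% of 20 calls (p = 1, exact test), and the differences between recurrent and opposite sites turned to 1.82 percentage points for promoters, 16.4 for other introns and -22.7 for intergenic DNA (p = 1, 0.164 and 0.166, exact tests), with 55 and 22 sites in the comparison. CNAGGNGGC was in 0.155% of windows of 31 bases. Of the other values recomputed, 30 kept their direction and their side of the threshold or moved within their error, and 3 were 0 in both and say nothing of stability. No paired analysis was possible because both libraries belong to 1 group. Depth limits every statement on single sites.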
